A study of Homo sapiens with 8 samples.

Results

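This report describes 10 genes of colon epithelial identity, ESRP1, MACC1, CDX1, CDX2, KLF5, ELF3, CDH1, CDH17, EPCAM and VIL1, among 18638 gene models counted in nascent RNA. All 10 were found by gene symbol. They had been chosen on their roles with the changes of nascent RNA within each cell line already known, so the values within a line are given as a description. Nascent RNA was isolated by factory-seq, in which DNase I-treated nuclei are lysed natively and caspases release the RNA bound at sites of transcription. The 8 libraries came from DLD-1 and HCT116, both human colorectal cancer cell lines, with 2 libraries in each of 4 groups. DLD-1 cells of both groups carried mAID-mClover-POLR2A (an auxin-inducible degron and a fluorescent tag on RPB1, the catalytic subunit of RNA polymerase II) and Tet-OsTIR1, the doxycycline-induced plant protein that the degron needs. DLD-1 controls were labelled untreated, and the auxin group had auxin for 14 h, which the protocol gives as 500 µM after doxycycline for 24 h. HCT116 cells of both groups carried TOP2A-mAID, the same degron on DNA topoisomerase II alpha. HCT116 controls were labelled untreated, and the other group was labelled TOP2B-/- TOP2A-mAID, a knockout of topoisomerase II beta. Its titles read as control, while its treatment field reads as 14 h of auxin and the names of its aligned libraries also read as auxin. Genotype and auxin therefore cannot be told apart there. The protocol with 500 µM auxin and doxycycline for 24 h is given with all 8 libraries, the untreated ones included. Titles call all 8 libraries asynchronous, the labels also mention a sort for G1 cells without saying where it was applied, and they do not say whether untreated cells had doxycycline or whether replicates were separate cultures. Each line stands for edited cells of 1 tumour, and p-values measure only the spread between these libraries.

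The genes belong to the programme that makes and keeps an intestinal epithelial cell. CDX1 and CDX2 are homeobox factors that specify intestine, while KLF5 and ELF3 are zinc finger and ETS factors of the growing and differentiating epithelium. Their targets and partners include the cadherins CDH1 and CDH17 and the adhesion protein EPCAM, which join neighbouring cells, VIL1, the actin bundler villin of the brush border, ESRP1, which directs epithelial splicing, and MACC1, known as a regulator of the MET receptor gene in colon cancer.

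RefSeq promoter windows were held for 4 of the 10 genes, MACC1, CDX2, KLF5 and ELF3, and not for ESRP1, CDX1, CDH1, CDH17, EPCAM or VIL1. They are shown because all 4 genes had lower shares of nascent RNA after auxin in DLD-1. Each run gives the bases upstream of the start in the orientation of transcription, less any base that lies inside the counted gene model, from RefSeq on GRCh38.p14. Capitals mark exact matches, on either strand, to TATAAA (the box bound by the TBP protein), CACCTG (the E-box that ZEB and SNAI repressors read), TTTATG (CDX), GGGCGG (GC box), CCACCC (KLF) or AGGAAG (ETS).
MACC1, chr7:20217391-20217634, minus strand: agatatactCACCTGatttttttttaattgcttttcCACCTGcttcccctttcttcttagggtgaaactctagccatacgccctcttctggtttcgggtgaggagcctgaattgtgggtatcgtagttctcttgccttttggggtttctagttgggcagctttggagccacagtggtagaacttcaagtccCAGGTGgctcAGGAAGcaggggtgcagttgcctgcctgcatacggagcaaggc
CDX2, chr13:27969369-27969565, minus strand: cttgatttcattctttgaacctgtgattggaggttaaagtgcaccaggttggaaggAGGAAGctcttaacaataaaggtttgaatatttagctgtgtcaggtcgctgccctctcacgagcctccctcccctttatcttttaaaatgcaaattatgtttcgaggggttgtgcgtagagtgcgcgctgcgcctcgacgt
KLF5, chr13:73054726-73054975, plus strand: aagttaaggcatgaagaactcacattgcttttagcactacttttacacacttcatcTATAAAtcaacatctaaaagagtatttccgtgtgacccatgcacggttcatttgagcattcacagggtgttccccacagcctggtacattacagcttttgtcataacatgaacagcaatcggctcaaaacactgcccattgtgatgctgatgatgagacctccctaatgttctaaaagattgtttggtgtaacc
ELF3, chr1:202010337-202010561, plus strand: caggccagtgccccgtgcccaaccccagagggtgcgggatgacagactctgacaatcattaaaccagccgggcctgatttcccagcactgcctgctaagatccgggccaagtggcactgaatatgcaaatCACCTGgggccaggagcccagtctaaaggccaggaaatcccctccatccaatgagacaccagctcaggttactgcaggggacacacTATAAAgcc
The windows did not share a motif across all 4 genes. MACC1 held the E-box at 241, 214 and 59 bases before its start and the ETS letters at 49, and CDX2 held the ETS letters at 194. ELF3 held TATAAA at 34 bases and the E-box at 120, and KLF5 held TATAAA at 194. A second RefSeq start of KLF5, 4029 bases into the counted model, held the GC box at 209 and 48 bases. Among the 250 upstream bases of 35116 RefSeq promoters, 10.7% held the TBP box, 17.5% the E-box, 9.64% the CDX letters, 42.6% the GC box, 31.3% the KLF letters and 28.7% the ETS letters. These letters are a description of the windows and are no evidence of binding.

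Total counts over gene models were 10739622 to 62626875 per library, lowest after auxin. Levels are in CPM, reads scaled to a common library size and, within each cell line, by TMM, which assumes that most genes keep their share. They are shares of a library, and RNA per cell was not measured. In bulk RNA, fewer cells of a type and less RNA per cell cannot be told apart. Background was taken as the density of reads over genes silent in the other line, and extended to all models it made up 2.24% and 9.02% of the total count in DLD-1 controls, 39.5% and 59.5% after auxin, and 0.266% to 3.04% in HCT116. Of the listed epithelial keratins, KRT8 and KRT18 had 353 to 2594 CPM and KRT19 had 117 to 782 CPM in all 8 libraries. KRT80 had 8.94 to 197 CPM, KRT7 had 3.26 to 5.89 CPM and KRT23 had at most 0.641 CPM. For 12 markers of blood, endothelial and fibroblast cells, the summed level was 20.7 and 47.7 CPM in DLD-1 controls and 214.6 and 228.6 CPM after auxin, with 0 markers at 0 and 2 to 4 above 2 times the background in each library (their part in the results below was not tested). In HCT116 their sum was 37.9 to 53.4 CPM, of which the collagen COL1A1 made up 24.6 to 46.6 CPM, with 2 to 7 markers above 2 times the background and CD3E and COL1A2 at 0 in control 2. Nascent TOP2B was 185.7 and 191.6 CPM in HCT116 controls and 134.5 and 131.6 CPM in the libraries labelled TOP2B-/-, so reads over the gene remained, and POLR2A was 280.8 and 179.9 CPM in DLD-1 controls and 159.4 and 108.0 CPM after auxin, where the degron acts on the protein.

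The label of colon epithelial genes was met for 9 of 10 members in DLD-1 controls and for 7 of 10 in HCT116 controls, if more than 2 times the background in both libraries is asked for. CDX1 (chromosome 5, 150166781 to 150184558, GRCh38) had 11 and 31 reads in DLD-1 controls and 7 and 1 reads in HCT116 controls. These counts were 0.504 to 0.756 times the background, and across all 8 libraries CDX1 reached at most 0.885 times the background. Transcription of this intestinal factor was therefore not detectable at this depth in either line. In HCT116, CDH17 (liver-intestine cadherin, chromosome 8, 94127166 to 94217303) also lay near the background, at 1.31 to 1.64 times in all 4 libraries on 10 to 123 reads, and VIL1 (chromosome 2, 218419115 to 218449525) lay at 1.04 to 3.10 times on 8 to 27 reads.

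Compared per kilobase of counted length, the order of the levels differed between the control groups. In DLD-1 controls EPCAM stood highest at 33.6 ± 1.56 CPM per kb (SD, n = 2), followed by CDH1 at 21.4 ± 4.58, KLF5 at 18.3 ± 1.44 and ELF3 at 17.03 ± 3.34. The libraries of these last 3 genes overlapped from one to the next. Below them stood CDX2 at 10.3 ± 0.681, ESRP1 at 8.41 ± 0.285, MACC1 at 7.21 ± 0.0972, CDH17 at 5.90 ± 1.07 and VIL1 at 0.433 ± 0.0615 CPM per kb, each apart from its neighbour in both libraries. In HCT116 controls EPCAM was again highest, at 7.53 ± 0.670 CPM per kb, but ESRP1 was next at 4.98 ± 0.0183, ahead of ELF3 at 3.47 ± 0.743 and KLF5 at 3.04 ± 0.204, which overlapped. CDH1 stood only below these there, at 1.01 ± 0.0488, followed by CDX2 at 0.706 ± 0.0771 and MACC1 at 0.593 ± 0.0133 CPM per kb, and CDH17, VIL1 and CDX1 overlapped from one to the next at the bottom.

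**Figure D1:**
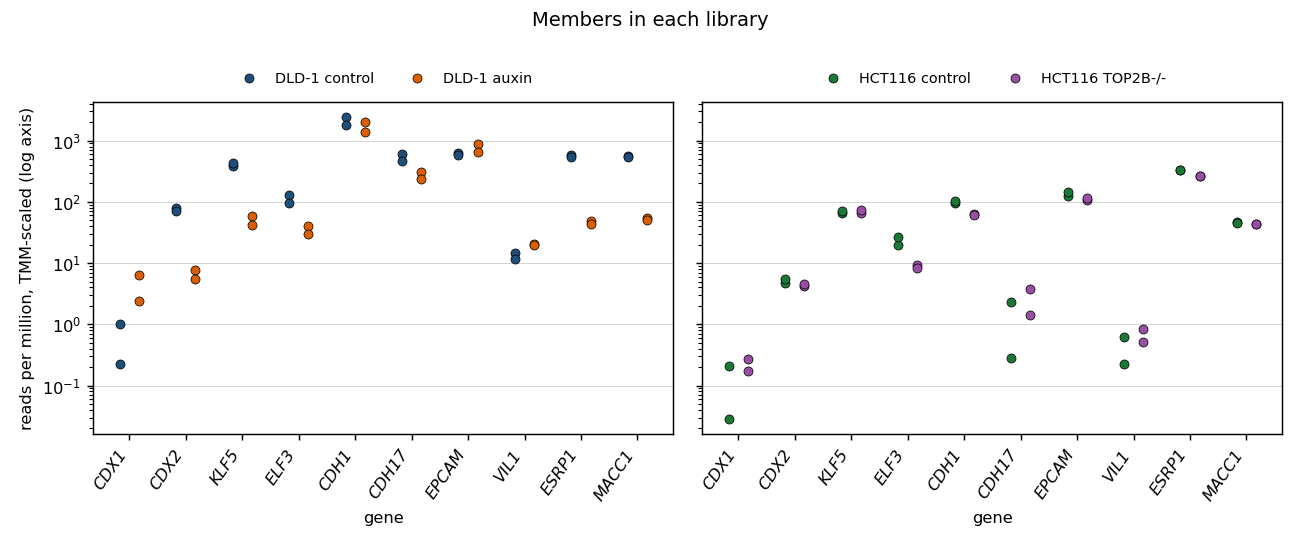
Level of each of the 10 genes in each library, in TMM-scaled CPM on a log axis, with DLD-1 on the left and HCT116 on the right and 1 point per library (2 per group). After auxin, ESRP1, MACC1, CDX2 and KLF5 lie far below the DLD-1 controls, while CDH1 overlaps them and EPCAM lies above them; CDH17, VIL1 and CDX1 are low in all HCT116 libraries.

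The DLD-1 comparison asks how nascent transcription of these genes differed after depletion of RPB1. The splicing regulator ESRP1, the MET regulator MACC1 and the transcription factors CDX2 and KLF5 fell by 8.22 to 12.1 times and stood at percentiles 0.272 to 0.681 of the fold changes of all tested genes. The adhesion genes CDH1 and EPCAM were not called, and ELF3 and CDH17 lay between. By edgeR at an adjusted p of 0.05, 6 of the 10 members were called lower, 1 higher and 3 neither, where 67.3% of 17625 tested genes were called, 35% lower and 32.2% higher. The groups did not overlap in 6 members in the lower direction (46.3% of all tested genes) and in 3 in the higher direction (44.7%). The comparison was known when the members were chosen, so nothing is read from these counts. The median log2 fold change of the members was -1.33 beside -0.06 for all tested genes.

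ESRP1 (chromosome 8, 94641136 to 94707466) had 571.5 and 544.7 CPM in the controls and 48.5 and 44.0 CPM after auxin. Both auxin libraries were far below both controls, a 12.1-fold difference (log2 fold change -3.59, SE 0.18). MACC1 (chromosome 7, 20134656 to 20217390) had 560.5 and 549.9 CPM in the controls and 54.5 and 50.2 CPM after auxin. It was 10.6-fold lower without overlap (log2 fold change -3.41, SE 0.17). What remained of both genes was close to the background, at 2.58 and 1.63 times for ESRP1 and 2.50 and 1.61 times for MACC1.

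Of the transcription factors, CDX2 (chromosome 13, 27962068 to 27969368) had 78.5 and 71.5 CPM in the controls and 7.66 and 5.45 CPM after auxin, or 11.4-fold less (log2 fold change -3.51, SE 0.25). Its auxin libraries stood at 3.69 and 1.84 times the background. KLF5 (chromosome 13, 73054976 to 73077542) had 389.9 and 435.8 CPM in the controls and 59.1 and 41.4 CPM after auxin, 8.22-fold lower (log2 fold change -3.04, SE 0.25), and kept 9.22 and 4.51 times the background. ELF3 (chromosome 1, 202010562 to 202017187) fell less, from 128.5 and 97.2 CPM to 39.6 and 29.5 CPM (3.26-fold, log2 fold change -1.71, SE 0.25). The groups of all 3 factors did not overlap, and ELF3 remained well above the background, at 21.1 and 10.96 times. ELF3 was not called without auxin replicate 1 (-1.84) or auxin replicate 2 (-1.51).

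The adhesion genes behaved differently. CDH1 (E-cadherin, chromosome 16, 68737292 to 68835541) had 2416 and 1780 CPM in the controls and 2046 and 1384 CPM after auxin. The groups overlapped and its log2 fold change of -0.29 (SE 0.32) was not called. EPCAM (chromosome 2, 47369148 to 47387028) had 617.5 and 578.2 CPM in the controls and 891.3 and 661.3 CPM after auxin, higher in both auxin libraries but not called (log2 fold change 0.38, SE 0.23). These genes kept 34.7 to 176 times the background after auxin. CDH17 had 599.8 and 464.0 CPM in the controls and 311.7 and 235.0 CPM after auxin, a 1.95-fold fall without overlap (log2 fold change -0.96, SE 0.24). Its call was lost without control replicate 1 (-0.77), auxin replicate 1 (-1.08) or auxin replicate 2 (-0.77), among genes of at least 5 CPM (-0.58) and in a fit over all 8 libraries (-0.77).

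VIL1 had 14.5 and 11.8 CPM in the controls and 20.4 and 19.7 CPM after auxin, higher in both auxin libraries and not called (log2 fold change 0.60, SE 0.24). CDX1 had 0.226 and 1.01 CPM in the controls and 2.38 and 6.40 CPM after auxin, and was called higher (log2 fold change 2.85, SE 0.95). All 4 CDX1 values lay under the background, at 0.471 to 0.885 times, and the gene passed the count filter in both auxin libraries but in only 1 control. Its call was lost without auxin replicate 1 (3.49), without auxin replicate 2 (1.96) and with DESeq2 size factors (2.96). VIL1 after auxin lay at 2.36 and 1.59 times the background, beside 18.9 and 4.09 times in the controls. The background itself took a larger share of the auxin libraries.

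**Figure D2:**
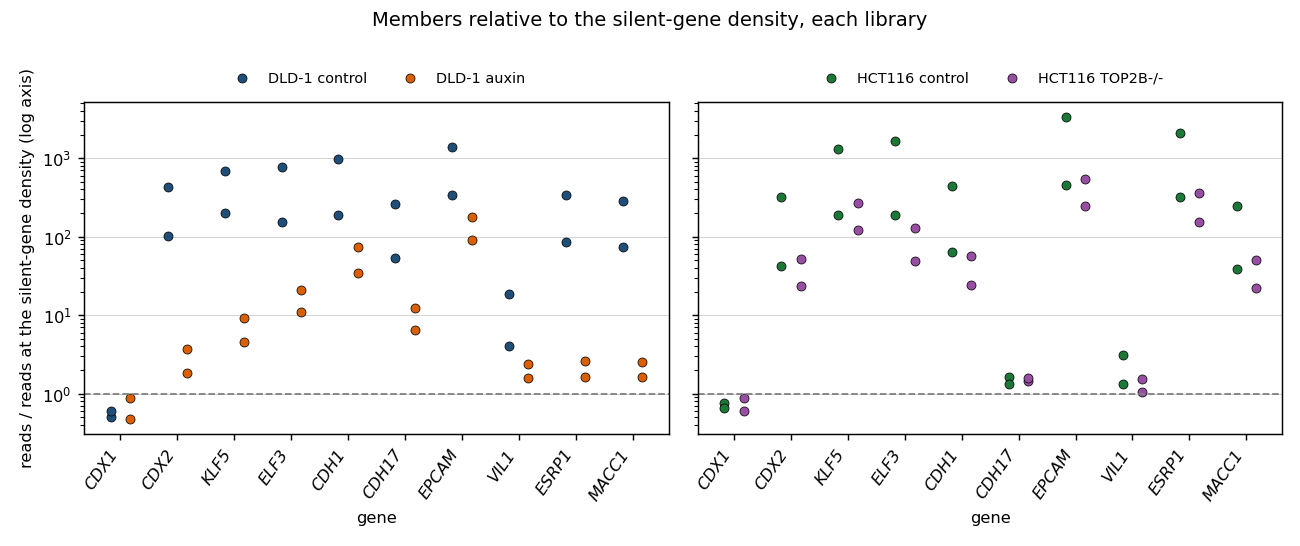
Reads of each gene divided by the reads expected at the silent-gene density, on a log axis, with 1 point per library (2 per group), DLD-1 on the left and HCT116 on the right; the dashed line marks 1. After auxin, ESRP1, MACC1 and VIL1 lie within 3 times the density and EPCAM and CDH1 above 30 times, and CDX1 lies below the line in all 8 libraries.

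Direction or call of the adhesion genes and VIL1 differed between scales. With background reads subtracted and the scaling left as it was, an alternative added after seeing the data, the median of all tested genes was -1.45, CDH1 was -0.32 and EPCAM 0.37 without a call, CDH17 was called lower at -1.12 and ELF3 at -1.80, and VIL1 was -0.25 without a call. ESRP1, MACC1, CDX2 and KLF5 were then called lower at -4.57, -4.41, -4.20 and -3.28, and 0 members were called higher. With background subtracted and TMM and the library totals taken anew from the reads that remained, the median of all tested genes was -0.16. CDH1 was then called higher at 0.99, EPCAM at 1.68 and VIL1 at 1.05, CDH17 was 0.19 without a call and ELF3 was called lower at -0.49. ESRP1, MACC1, CDX2 and KLF5 were called lower there too, at -3.29, -3.14, -2.96 and -1.997. With library totals in place of TMM, the median of all tested genes moved from -0.06 to 0.57, CDH1 was 0.35, EPCAM was called at 1.01, VIL1 was called at 1.25 and CDH17 was not called at -0.32. All tested genes then split into 7544 higher and 3378 lower calls, beside 5678 and 6177 with TMM. EPCAM was also called in the fit over all 8 libraries (0.58) and among genes of at least 5 CPM (0.76), and VIL1 by DESeq2 (0.70), with its size factors (0.70) and among genes of at least 5 CPM (1.00). With all reads and TMM, the order of the fold changes was ESRP1, CDX2, MACC1, KLF5, ELF3, CDH17, CDH1, EPCAM, VIL1 and CDX1 from lowest to highest. Without auxin replicate 1 or auxin replicate 2, only ESRP1, MACC1, CDX2 and KLF5 among the members kept a call. Most calls among all tested genes were lost there too. The log2 fold changes of these members, in that order, were -3.57, -3.37, -3.68 and -3.22 without auxin replicate 1. They were -3.53, -3.35, -3.29 and -2.81 without auxin replicate 2.

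**Figure D3:**
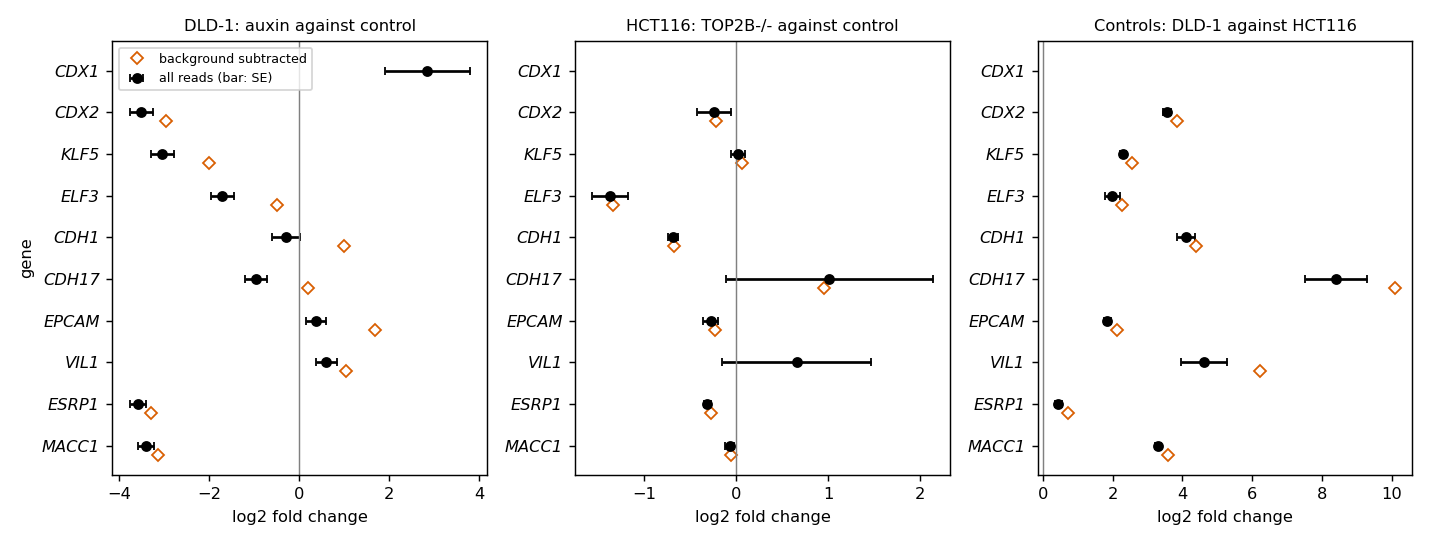
Log2 fold change of each gene in the 3 comparisons, with filled points for all reads and bars for 1 standard error (2 libraries per group), and open diamonds for background-subtracted counts that were also rescaled; the horizontal scales differ. In DLD-1 the diamonds lie right of the points except that CDX1 has none, and CDH1 and CDH17 cross 0, whereas in HCT116 points and diamonds nearly coincide.

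Genes of the same pathways were looked at as lists in the DLD-1 comparison. Where 67.3% of all tested genes were called, the share was 66.7% of the transcription factors, 57.7% of the adhesion genes, 87.5% of the splicing regulators, 60% of the keratins, 59.1% of the brush border genes, 84.6% of the mesenchymal genes and 66.7% of the markers of other cell types. Of 18 tested intestinal and epithelial transcription factors, 9 were called lower and 3 higher (median -1.12), led by GATA6 (-3.47), FOXA1 (-3.21) and EHF (-3.07), which are factors of gut endoderm and of the ETS family. TFCP2L1 (1.53), called higher, lay at 1.38 and 1.15 times the background after auxin. Of 26 adhesion and junction genes 15 were called lower and 0 higher (median -0.90), led by the claudins CLDN4 (-3.30) and CLDN3 (-2.26) and the desmosomal PKP2 (-2.19). Without auxin replicate 1 or auxin replicate 2 only 4 and 5 of these were called. Of 8 splicing regulators, 7 were called lower and 0 higher (median -1.14), and ESRP2, the paralogue of ESRP1, was -2.82, beside RBM47 at -1.86 and MBNL1 at -1.63. Some calls of these regulators were lost without auxin replicate 1 (median -1.05) or auxin replicate 2 (median -1.15). With library totals 3 of the regulators were called lower (median -0.51). Of 5 keratins, 3 were called lower and 0 higher (median -1.62), namely KRT80 (-4.16), KRT18 (-1.72) and KRT19 (-1.62). With background subtracted and the scaling left as it was, the medians were -1.35 for the adhesion genes, with 14 called lower and 0 higher, -1.72 for the keratins, -3.19 for the transcription factors and -3.02 for the splicing regulators. With rescaling as well, the median of the adhesion list was -0.04 with 7 called higher and 10 lower, and that of the keratins was -0.40 with 1 called in each direction, while those of the transcription factors and splicing regulators were -1.96 and -1.74.

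In the brush border list and the lists of other lineages, more genes were called higher than lower. Of 22 brush border and enterocyte genes, 11 were called higher and 2 lower (median 0.88). GUCY2C (3.36), ANPEP (3.09) and SLC26A3 (3.03) led those that rose, at 1.25 to 3.12 times the background after auxin, and EZR (-1.19) and VILL (-1.12) fell. Of 13 mesenchymal genes and repressors of the epithelial state, 11 were called higher and 0 lower (median 2.36), led by SPARC (2.81), MMP2 (2.79) and ZEB2 (2.62). Of the 14 listed, 2 and 1 exceeded 2 times the background in the auxin libraries. Of 12 markers of blood, endothelial and fibroblast cells, 8 were called higher and 0 lower (median 2.39), led by PECAM1 (4.29), COL3A1 (2.89) and CDH5 (2.89). After auxin PECAM1 lay at 4.81 and 2.49 times the background. COL3A1, at 0.652 and 0.706 times, and CDH5, at 0.830 and 0.890 times, lay under the background. The higher calls of the brush border, mesenchymal and other cell type lists were lost without auxin replicate 1 or auxin replicate 2. Most higher calls among all tested genes were lost there too. The medians of these lists were 1.10, 2.66 and 2.92 without auxin replicate 1 and 0.83, 2.13 and 2.02 without auxin replicate 2. With background subtracted and the scaling left as it was, 15 brush border genes could be tested, 3 called higher and 5 lower (median -1.22), EZR was called lower, and of 6 mesenchymal genes 2 were called higher (median 1.23), as was 1 of 4 markers of other cell types. With rescaling as well, 7 brush border genes were called higher and 2 lower (median 0.07), EZR was 0.04, and all 6 mesenchymal genes were called higher (median 2.47).

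**Figure D4:**
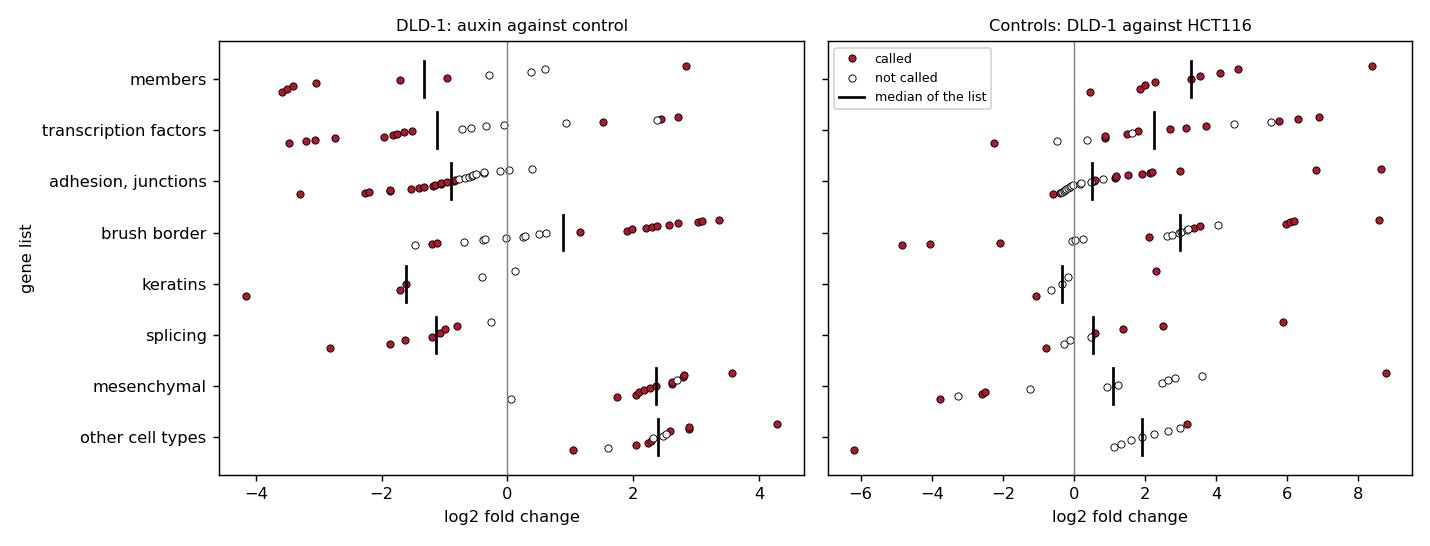
Log2 fold change of each tested gene of the 10 members and of 7 pathway lists, in DLD-1 after auxin (left) and in control DLD-1 against control HCT116 (right); red points were called by edgeR at an adjusted p of 0.05, open points were not, and a bar marks the median of each list. On the left the medians of the members, transcription factors, adhesion genes, keratins and splicing regulators lie below 0 and those of the brush border, mesenchymal and other cell type lists above it.

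The HCT116 comparison sets TOP2B-/- TOP2A-mAID cells beside TOP2A-mAID controls. CDH1 and ESRP1 were called lower by small amounts, and ELF3 lay lower still without a call. By edgeR, 2 of the 9 tested members were called lower and 0 higher, where 3.41% of 15273 genes were called, 1.66% lower and 1.75% higher. In 6 of the 9 the groups did not overlap in the lower direction, beside 27.6% of all tested genes. This contrast too was known when the members were chosen. The median of the members was -0.24 beside 0.03 for all genes.

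CDH1 had 95.9 and 102.7 CPM in HCT116 controls and 62.4 and 61.1 CPM in the libraries labelled TOP2B-/-. Both of these lay below both controls, at 62.2% of the control mean (log2 fold change -0.69, SE 0.05), and it was called lower. ESRP1 had 329.5 and 331.2 CPM in the controls and 265.6 and 266.7 CPM in the libraries labelled TOP2B-/-, at 80.6% of the control mean, and was called lower (log2 fold change -0.31, SE 0.03). Within each group the 2 libraries of ESRP1 were nearly equal. ELF3 had 19.5 and 26.5 CPM in the controls and 9.42 and 8.42 CPM in the libraries labelled TOP2B-/-. It lay at 38.8% of the control mean (log2 fold change -1.37, SE 0.20), without overlap, but it was not called by edgeR. It was called by DESeq2 (-1.37), with background subtracted and rescaled (-1.34), with background subtracted alone (-1.38), with library totals (-1.34), with DESeq2 size factors (-1.37), among genes of at least 5 CPM (-1.35) and without control replicate 1 (-1.57). In 6 of 14 alternatives ELF3 was not called. Among them were the fit over all 8 libraries, the replicate block and the fits without TOP2B-/- replicate 1 or TOP2B-/- replicate 2. CDH1 and ESRP1 were not called without TOP2B-/- replicate 1 (-0.74 and -0.35) or TOP2B-/- replicate 2 (-0.67 and -0.32), fits in which edgeR called 0 genes in all, with 2266 and 1286 genes at an unadjusted p under 0.05. Both also lost their calls in the fit over all 8 libraries (-0.70 and -0.32), and ESRP1 did so without the count filter (-0.31).

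The other members were not called by edgeR. EPCAM had 125.5 and 142.4 CPM in the controls and 107.7 and 113.9 CPM in the libraries labelled TOP2B-/- (log2 fold change -0.27, SE 0.08), CDX2 had 4.76 and 5.55 against 4.22 and 4.48 CPM (-0.24, SE 0.19), and MACC1 had 46.3 and 44.9 against 43.1 and 43.8 CPM (-0.07, SE 0.05). In these 3 the groups did not overlap and the differences were not called, although EPCAM was called by DESeq2 (-0.28) and without control replicate 1 (-0.37). KLF5 overlapped, with 65.2 and 71.8 CPM in the controls and 67.0 and 72.4 CPM in the libraries labelled TOP2B-/- (0.02, SE 0.07). CDH17 (1.01, SE 1.12) and VIL1 (0.66, SE 0.81) overlapped at background level, and CDX1, with 1 to 9 reads per library, did not pass the count filter.

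In the same comparison few list genes were called. Of 24 tested adhesion and junction genes, 1 was called lower, the tight junction protein CGN (-0.74), and 0 higher (median -0.33), while 21 lay lower without overlap, beside 27.6% of all tested genes. Of 6 keratins, 1 was called lower, KRT80 (-1.62), and of 8 splicing regulators 1 was called higher, QKI (0.44). Of 13 mesenchymal genes and repressors, 1 was called higher and 0 lower (median 1.14). That was ZEB1, a repressor of CDH1 (0.80, SE 0.07), at 138.5 and 123.8 CPM in the controls and 233.7 and 223.5 CPM in the libraries labelled TOP2B-/-. SNAI1, another repressor, went the other way without a call, from 10.0 and 10.7 CPM to 5.66 and 5.86 CPM. Of the 13, 4 lay higher and 2 lower without overlap, beside 27.6% of all tested genes in each direction. The list median was 0.34 among genes of at least 5 CPM. It was 0.11 without control replicate 2, 0.49 without TOP2B-/- replicate 2 and 1.86 without control replicate 1. Of 15 transcription factors, 16 brush border genes and 8 markers of other cell types, 0 were called by edgeR in either direction. The best expressed of them were SOX9 (-0.35) and GRHL2 (-0.25), EZR (-0.33) and ESPN (-0.56), and COL1A1 (-0.67) and VWF (-0.11). Without TOP2B-/- replicate 1 or TOP2B-/- replicate 2, the calls of all lists were lost, as were those of all tested genes. Without control replicate 1, more adhesion genes and members were called lower and more mesenchymal genes higher. Calls among all tested genes rose there too. The medians in that fit were -0.45 for the adhesion genes, 1.86 for the mesenchymal genes and -0.32 for the members.

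The control libraries were then compared between the lines. The levels in the controls were known when the members were chosen, so their values are given as a description. Cell line, edited gene and library preparation cannot be told apart, and each control group also serves in a comparison above. CPM are here scaled over the 4 control libraries together. All 9 members that passed the count filter were called higher in DLD-1, with ESRP1 separated least, where edgeR called 46.1% of 15820 genes, 17.5% higher in DLD-1 and 28.5% lower. The groups of all 9 lay higher in DLD-1 without overlap and 0 lower, beside 39.6% and 44.3% of all tested genes. CDX1 did not pass the filter, and VIL1 passed through both DLD-1 libraries but only 1 HCT116 library, so nothing is read from these counts. The median log2 fold change of the 9 was 3.30, against -0.00 for all genes.

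CDH1 had 1945 and 1419 CPM in DLD-1 and 98.9 and 98.1 CPM in HCT116, a 17.1-fold difference (log2 fold change 4.09, SE 0.25). CDH17 had 482.9 and 370.0 CPM in DLD-1 and 2.36 and 0.269 CPM in HCT116, where it lay near the background (log2 fold change 8.39, SE 0.89). The size of that last difference is poorly fixed, since it ranged from 7.29 to 10.8 over the pairs of libraries. EPCAM had 497.2 and 461.1 CPM in DLD-1 and 129.4 and 135.9 CPM in HCT116, 3.61-fold higher (log2 fold change 1.85, SE 0.09). VIL1 had 11.7 and 9.45 CPM in DLD-1 and 0.644 and 0.215 CPM in HCT116 (log2 fold change 4.62, SE 0.67). It was not called without DLD-1 control replicate 1 (4.36).

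CDX2 had 63.2 and 57.0 CPM in DLD-1 and 4.90 and 5.30 CPM in HCT116, 11.8-fold higher (log2 fold change 3.56, SE 0.12). KLF5 had 313.9 and 347.5 CPM in DLD-1 and 67.3 and 68.5 CPM in HCT116, 4.87-fold higher (log2 fold change 2.28, SE 0.08). ELF3 had 103.5 and 77.5 CPM in DLD-1 and 20.1 and 25.3 CPM in HCT116, 3.98-fold higher (log2 fold change 1.99, SE 0.21). For all 3 factors both DLD-1 libraries lay above both HCT116 libraries.

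MACC1 had 451.3 and 438.6 CPM in DLD-1 and 47.8 and 42.9 CPM in HCT116, 9.82-fold higher (log2 fold change 3.30, SE 0.09). ESRP1 had 460.1 and 434.4 CPM in DLD-1 and 339.8 and 316.3 CPM in HCT116, only 1.36-fold higher (log2 fold change 0.45, SE 0.10). Both genes were higher in both DLD-1 libraries, but the call of ESRP1 was lost without the count filter (0.38), without DLD-1 control replicate 1 (0.29), without HCT116 control replicate 1 (0.47) and without HCT116 control replicate 2 (0.32).

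The pathway lists showed how far other epithelial genes differed between the lines. Where 46.1% of all tested genes were called, the share was 68.8% of the transcription factors, 53.8% of the adhesion genes, 62.5% of the splicing regulators, 50% of the brush border genes, 40% of the keratins, 33.3% of the mesenchymal genes and 22.2% of the markers of other cell types. Of 16 transcription factors, 10 were called higher in DLD-1 and 1 lower (median 2.25), with HNF4A (6.89, at 1.40 and 0.306 times the background in HCT116), FOXA1 (6.30) and EHF (5.78) leading and TFCP2L1 (-2.25) lower. Of 26 adhesion genes, 12 were higher and 2 lower (median 0.51), with CLDN1 at 6.80 and PKP2 at 2.99, and with CDH3 (-0.59) and DSC2 (-0.39) lower. The call of CDH3 was lost in 8 of 14 alternatives and that of DSC2 in 10 of 14, and without DLD-1 control replicate 2, HCT116 control replicate 1 or HCT116 control replicate 2, 0 adhesion genes were called lower by edgeR. Of 8 splicing regulators, 4 were higher and 1 lower (median 0.54), and ESRP2 (1.38), RBM47 (2.50) and MBNL3 (5.87) were higher while QKI (-0.80) was lower. Of 20 brush border genes, 7 were higher and 3 lower (median 2.98). Among genes of at least 5 CPM, 8 could be tested, 4 called higher and 3 lower (median 1.23). With background subtracted and rescaled, 15 could be tested, 9 called higher and 4 lower (median 3.76). With 1 library left out, the median of the list ranged from 2.21 to 3.91, and the number called higher moved in both directions. KRT20, CEACAM6 and TFF3 led those that were higher, with means of 6.48, 5.67 and 2.20 CPM in DLD-1 and 0.0135, 0.0766 and 0.0307 CPM in HCT116, and USH1C (-4.84), ESPN (-4.06) and EZR (-2.09) were lower. Of 5 keratins, KRT80 was higher (2.29) and KRT19 lower (-1.07). Of 12 mesenchymal genes, 1 was higher and 3 lower, namely TGFBI (8.77) and SNAI1 (-3.77), SPARC (-2.59) and ZEB1 (-2.50), although the median of the list was 1.09. Of the 14 listed, 5 and 1 exceeded 2 times the background in the DLD-1 controls. With background subtracted, 10 could be tested, 2 called higher and 5 lower. The median of these was -2.57 with rescaling and -2.81 with the scaling left as it was. Of 9 markers of other cell types, PDGFRB was higher (3.17) and COL1A1 lower (-6.18).

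Over all 8 libraries, the profile of each member was compared with 13092 genes that had at least 10 reads in every library, as the root-mean-square difference of log2(CPM + 1) after taking away the mean of each gene. MACC1 and CDX2 had profiles close to each other, 0.13 apart, and only 1 gene was nearer to MACC1 and 2 to CDX2. The other compared members were not close to a fellow member in this way. Genes nearer than the nearest member numbered 44 for CDH17, 126 for KLF5, 181 for CDH1, 302 for ELF3, 1175 for EPCAM and 4075 for ESRP1. The nearest gene was ARHGAP32 for MACC1 (0.12), SHROOM3 for CDX2 (0.10), GTPBP2 for ESRP1 (0.12), SGK223 for KLF5 (0.14) and UNC13D for ELF3 (0.22). For the adhesion genes it was PCYOX1 for EPCAM (0.09), ACAA2 for CDH1 (0.32) and RASEF for CDH17 (0.58). CDX1 and VIL1 had under 10 reads in at least 1 library and were not compared. These likenesses are a description over 8 libraries that share cell lines and batches.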

How the data were processed

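Factory-seq libraries from 4 groups of 2 were analysed. The count tables that the authors deposited, 1 for each cell line, hold raw counts of reads over 18638 RefSeq models on GRCh38, introns included, and 1443 models have a counted length below their span. The submitters' processing notes name STAR, DESeq2 and hg38, without versions, and strand use in counting is not stated. The authors' tables of changed genes (fold changes, p-values and normalised values) were not used. The paper read for style concerns other samples.

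The members, pathway lists and tests were chosen with earlier results of these data known. Quasi-likelihood tests used edgeR 4.0.16 under R 4.3.3 on the 4 libraries of a comparison (filterByExpr, TMM, two-sided p-values, Benjamini-Hochberg adjustment over all tested genes at 0.05). The tests were checked on simulated counts, in which background did not differ between groups. That check therefore does not cover the background after auxin. Standard errors were derived from the F statistic. Silent genes were the 20% of models of at least 5000 bp with the fewest reads per kb in controls of the other line, per chromosome and without Y. Background-subtracted counts had a floor of 0 and were fitted with scaling taken anew or left unchanged. Named genes were the 10 members and, per list and comparison, up to 3 called genes with the largest change in each direction at a mean of at least 1 CPM, or the 2 best expressed where 0 were called. Some genes that this rule names are not reported here. Alternatives were DESeq2 1.42.0, other scalings and filters, all 8 libraries in 1 fit, a replicate block and leaving out each library.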

Additional observations from a re-analysis of the deposited data

How the results depend on the processing

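Limits: with 2 libraries per group, calls hang on single libraries. Calls numbered 11855 in DLD-1, 521 in HCT116 and 7286 between the lines. They were 2393 to 12732, 0 to 2519 and 3869 to 6285 when 1 library was left out, with 2393 and 3165 without auxin replicate 1 and auxin replicate 2, 0 without TOP2B-/- replicate 1 or TOP2B-/- replicate 2, 2519 without HCT116 control replicate 1, and 3869 without HCT116 control replicate 2. In HCT116, DESeq2 called 3295, a mean of at least 5 CPM 1350, background subtraction with rescaling 2285, subtraction with the scaling unchanged 1097 and the fit over all 8 libraries 5. A replicate block gave 12963, 0 and 4105 calls, and numbers crossed in the block, chosen after seeing the data as was subtraction with unchanged scaling, 1799 in HCT116. The labels do not say whether same-numbered libraries form pairs. Deviations of same-numbered libraries correlated at 0.55, -0.81 and -0.68 across genes. These values cannot decide it, because the background share also differed between the libraries of each group. Directions reversed for CDH1 in DLD-1 with library totals (0.35), a mean of at least 5 CPM (0.088) and background subtraction with rescaling (0.99), for CDH17 (0.19) and EZR (0.039) in DLD-1 with background subtraction and rescaling but not with subtraction alone, for VIL1 (-0.25) and TFCP2L1 (-0.076) in DLD-1 with subtraction alone, for KLF5 in HCT116 without control replicate 1 (-0.048) or TOP2B-/- replicate 2 (-0.033), its range over left-out libraries reaching 0.038, and for VWF in HCT116 without control replicate 1 (0.15) or TOP2B-/- replicate 1 (0.25). Besides the construction of each setting, the cause was not tested. Background reads limit what can be said of CDX1 in both lines and of CDH17 and VIL1 in HCT116.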
